A study of Homo sapiens with 9 samples.

Results

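ARID1B-alone promoter peaks are places where the ARID1B antibody enriched DNA next to a gene start and where neither of the other ARID antibodies gave a peak on the same bases. They were taken from the ARID1B peak list as the peaks in the authors' promoter class that shared no base with any ARID1A or ARID2 peak. The rule found 1142 members, 34.5% of the 3306 ARID1B promoter peaks and 13.1% of all 8728 ARID1B peaks, among 34575 ARID peaks in all. The other 2164 ARID1B promoter peaks, called shared here, overlapped both other ARIDs in 1182 cases, ARID1A without ARID2 in 659 and ARID2 without ARID1A in 323.

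The data are ChIP-seq peak lists from HepG2, an established human liver cancer line, grown with no treatment or genetic change. Chromatin digested with micrococcal nuclease after light formaldehyde fixation was precipitated with 1 antibody each against ARID1A, ARID1B, ARID2 and SNF5, with 2 replicates per antibody and 1 input library. The authors merged both replicates before peak calling, so each subunit has 1 list, replicate error cannot be given, and the read depth behind each list is unknown. A subunit and its antibody cannot be told apart in these lists, and the absence of a peak is the absence of a call and not of a protein. Of 14 hepatocyte marker genes, 11 held an ARID promoter peak and 12 had an SNF5 peak within 1000 bp of a start. TTR and FGB had neither. No share over all genes is set beside these counts, so they do not test the identity of the cell line. FGA and FOXA2 were the 2 markers with an ARID1B-alone promoter peak.

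SWI/SNF complexes use the energy of ATP to slide or remove nucleosomes. ARID1A and ARID1B are alternative subunits of the BAF form, ARID2 is a subunit of the PBAF form, and SNF5 (also known as BAF47 or SMARCB1) is a core subunit of both forms. A promoter with an ARID peak is therefore commonly read together with SNF5, which marks the complex whichever ARID it carries.

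The sequences of 8 peaks are shown on the plus strand of hg19, with every CpG dinucleotide in capitals, because ARID1B-alone peaks differed from shared ones in CpG content. Peaks of 100 to 300 bp with a protein-coding nearest gene were used, and none that touched an annotated exon. The first pair had the highest SNF5 scores among such ARID1B-alone peaks. ABCB6, a transporter of the ATP-binding cassette family, held its peak in an intron, and so did ARFGEF2, an exchange factor for ARF proteins at the Golgi.
ABCB6, chr2:220082536-220082722: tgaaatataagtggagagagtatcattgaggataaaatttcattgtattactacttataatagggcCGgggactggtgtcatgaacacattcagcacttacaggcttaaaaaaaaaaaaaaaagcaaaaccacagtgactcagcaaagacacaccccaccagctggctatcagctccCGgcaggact
ARFGEF2, chr20:47538569-47538738: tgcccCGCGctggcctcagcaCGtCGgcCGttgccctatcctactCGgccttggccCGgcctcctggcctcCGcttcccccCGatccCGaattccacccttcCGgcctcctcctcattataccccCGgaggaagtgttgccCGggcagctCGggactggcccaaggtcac

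The next pair had no SNF5 peak and lay closest to a transcription start site (TSS) by the same selection. Both lay in introns, at PTP4A2, a protein tyrosine phosphatase, and at DOK4, a docking adaptor of tyrosine kinase signalling.
PTP4A2, chr1:32376889-32377105: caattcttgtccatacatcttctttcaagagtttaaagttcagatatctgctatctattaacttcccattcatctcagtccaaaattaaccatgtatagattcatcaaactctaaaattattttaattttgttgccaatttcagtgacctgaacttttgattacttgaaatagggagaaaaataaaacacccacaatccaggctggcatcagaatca
DOK4, chr16:57513895-57514019: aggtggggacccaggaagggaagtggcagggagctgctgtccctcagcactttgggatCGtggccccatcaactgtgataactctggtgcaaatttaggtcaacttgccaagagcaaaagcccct

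The next pair lay upstream of genes for secreted liver proteins at which no ARID1A or ARID2 promoter peak was named. This pair was chosen after its values were seen. FGA encodes the fibrinogen alpha chain and APOE a lipid-carrying apolipoprotein.
FGA, chr4:155512058-155512292: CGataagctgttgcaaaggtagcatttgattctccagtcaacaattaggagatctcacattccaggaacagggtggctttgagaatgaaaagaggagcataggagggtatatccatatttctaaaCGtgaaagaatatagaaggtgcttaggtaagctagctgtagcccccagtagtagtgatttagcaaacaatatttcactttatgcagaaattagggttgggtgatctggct
APOE, chr19:45408765-45408990: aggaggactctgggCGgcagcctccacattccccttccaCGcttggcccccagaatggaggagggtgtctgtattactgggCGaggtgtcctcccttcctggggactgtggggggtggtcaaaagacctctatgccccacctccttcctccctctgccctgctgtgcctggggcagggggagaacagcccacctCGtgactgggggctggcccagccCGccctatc

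The last pair are shared ARID1B promoter peaks with the highest SNF5 scores, printed for contrast. They lie upstream of SLC39A3, a zinc transporter, and of CACTIN, a splicing-associated protein.
SLC39A3, chr19:2740171-2740306: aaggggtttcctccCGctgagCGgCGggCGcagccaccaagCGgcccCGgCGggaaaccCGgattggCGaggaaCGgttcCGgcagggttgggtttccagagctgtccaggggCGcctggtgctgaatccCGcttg
CACTIN, chr19:3626823-3627035: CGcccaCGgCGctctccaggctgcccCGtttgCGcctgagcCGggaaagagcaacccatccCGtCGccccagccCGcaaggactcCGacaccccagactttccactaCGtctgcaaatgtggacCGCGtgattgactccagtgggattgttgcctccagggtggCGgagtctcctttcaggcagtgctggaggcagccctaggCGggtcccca

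The ABCB6 peak held 2 CpG dinucleotides in 187 bp, and the ARFGEF2 peak held 14 in 170 bp. The PTP4A2 peak held 0 in 217 bp and the DOK4 peak 1 in 125 bp. At the liver genes the counts were 2 in 235 bp for FGA and 5 in 226 bp for APOE. The shared peaks held 13 in 136 bp at SLC39A3 and 15 in 213 bp at CACTIN, the latter less dense than ARFGEF2. CpG-poor and CpG-dense sequences thus both occurred among the printed ARID1B-alone peaks.

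ARID1B-alone promoter peaks were narrow. Their median width was 137 bp, with quartiles of 75 and 201 bp and a range of 52 to 1836 bp, against a median of 196 bp for shared ARID1B promoter peaks. The ARID1A-alone and ARID2-alone promoter peaks, defined by the same rule from the other lists, had medians of 176 and 158 bp. The smallest width in the ARID1B list, 52 bp, was found in 206 members (18.0%) and in 162 shared peaks (7.49%). Together the members covered 181.9 kb, and the shared peaks 546.2 kb. Width bears on the rule itself, because a wide peak has more bases to share, so these widths are a description.

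SNF5 was found at 616 of the 1142 ARID1B-alone promoter peaks (53.9%, Wilson 95% interval 51.0 to 56.8). This is below the 77.2% of all ARID1B promoter peaks and the 62.9% of all ARID1B peaks that overlapped an SNF5 peak. Shared ARID1B promoter peaks overlapped SNF5 in 1936 of 2164 cases (89.5%, 88.1 to 90.7), a difference of -35.5 percentage points (95% interval -38.7 to -32.3, odds ratio 0.138, Fisher's exact test, adjusted p = 5.53e-113). ARID1A-alone promoter peaks overlapped SNF5 in 58.4% of 4673 cases, slightly more often than the members (odds ratio 0.833, Fisher's exact test, adjusted p = 0.00773). That odds ratio no longer passed within strata of peak width (0.992) or of GC content (0.911). Its direction turned, and it passed, when sharing needed a reciprocal overlap of 50% (1.24). For ARID2-alone promoter peaks the share was 51.1% of 4062, and the difference of 2.81 points had an interval of -0.473 to 6.07 (odds ratio 1.12, Fisher's exact test, adjusted p = 0.101). Against ARID2-alone peaks the odds ratio passed on both sides of 1, depending on the rule. It passed at 1.21 within strata of width and at 1.48 with reciprocal overlap. It also passed at 0.803 when an ARID peak within 1000 bp counted as shared, and at 0.643 when an SNF5 peak within 1000 bp counted as overlap. All adjusted p-values are two-sided and corrected over 15 comparisons by the Benjamini-Hochberg method. They cover the count of peaks only, since peaks of 1 merged list are not replicates.

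**Figure D1:**
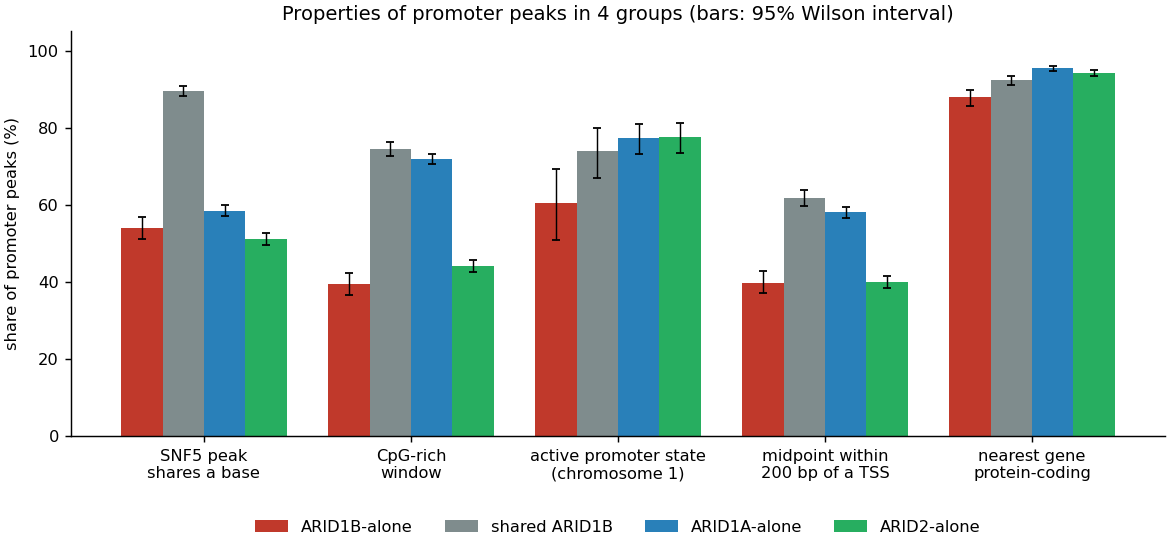
Share of promoter peaks (%) with each of 5 properties in ARID1B-alone, shared ARID1B, ARID1A-alone and ARID2-alone promoter peaks, with 95% Wilson intervals as error bars. ARID1B-alone peaks were lower than shared ARID1B peaks in all 5, for example 53.9% against 89.5% for SNF5 overlap and 39.4% against 74.5% for CpG-rich windows.

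Narrow and wide members both showed the lower SNF5 share. Among members of 52 to 82 bp, 48.9% of 317 overlapped SNF5, and among shared peaks of that width 81.7% of 349 did. In the widest class, from 293 bp upwards, the shares were 72.0% of 93 members and 94.4% of 568 shared peaks. Within strata of width the odds ratio between members and shared peaks was 0.163.

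**Figure D2:**
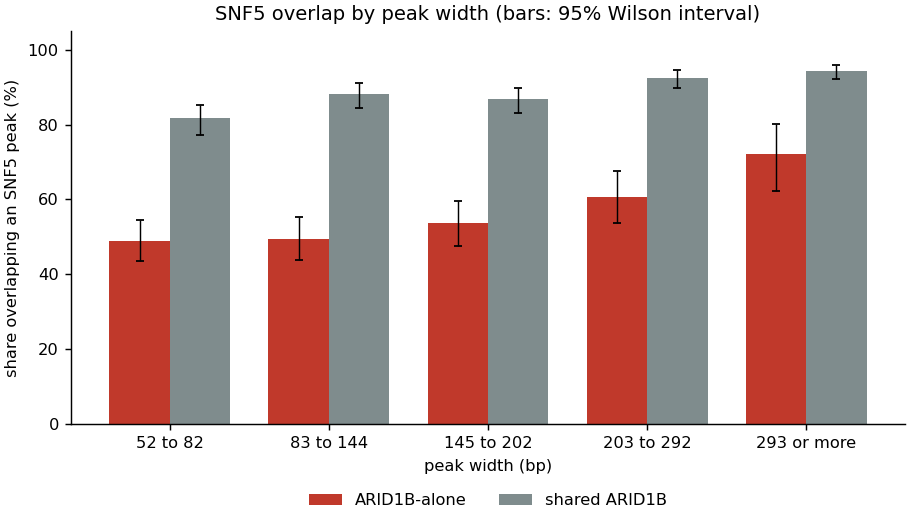
Share of peaks overlapping an SNF5 peak (%) by peak width in bp, for ARID1B-alone and shared ARID1B promoter peaks, with 95% Wilson intervals. The share was lower in ARID1B-alone peaks in each of 5 width classes, from 48.9% against 81.7% in the narrowest to 72.0% against 94.4% in the widest.

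The members on SNF5 mostly lay inside much wider SNF5 peaks. The 616 members fell on 583 SNF5 peaks with a median width of 1155 bp, and 468 members (76.0%) were wholly contained. Shared peaks lay on SNF5 peaks with a median width of 1433.5 bp, and 83.3% were contained. Of the members without SNF5 overlap, 246 (21.5% of all members) had an SNF5 peak within 1000 bp and 280 (24.5%) did not. Only 70 shared peaks (3.23%) lay farther than 1000 bp from SNF5. The SNF5 score, a whole number from the authors' peak caller whose scale is not stated, had a median of 22 at members and 25 at shared peaks, and reached 46 and 124, respectively.

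The 10 members with the highest SNF5 scores ranged from 36 to 46. CSNK1A1, the alpha isoform of casein kinase 1, held a 109-bp member at chr5:148930665-148930773, in an untranslated exon, with an SNF5 score of 44. CACYBP, a calcyclin-binding protein of ubiquitin ligase complexes, held a 128-bp member at chr1:174968704-174968831 with a score of 40. COPS7B, a subunit of the COP9 signalosome, held 1 of 303 bp at chr2:232646165-232646467 with a score of 39. Each of these 3 members had an ARID1A or ARID2 peak within 300 bp that did not touch it. PPP1R10, a regulatory subunit of protein phosphatase 1, had a score of 38 and gaps of 26 bp to ARID1A and 22 bp to ARID2. CIDEB, a lipid droplet protein of liver, also had a score of 38. TSN, which encodes the nucleic acid-binding protein translin, had a score of 36, and its 104-bp member lay at 0 bp from the start. The remaining 4 of these 10 members lay at AC067945.4, with the top score of 46, RP11-33B1.1 with 43, and RP11-41O4.1 and the pseudogene PDXDC2P with 36 each.

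Most members had another ARID close by. An ARID1A or ARID2 peak lay within 1000 bp of 661 members (57.9%), and the other 481 (42.1%) had none. The median gap was 523.5 bp, with quartiles of 147 and 18215.5 bp. Of the 661 members with a neighbour, 333 had both ARID1A and ARID2 within 1000 bp, 204 ARID1A alone and 124 ARID2 alone. Where an ARID1A promoter peak of the same gene was the neighbour, the member had the larger distance to a start in 290 of 441 pairs (65.8%). Median distances were 293 bp for members and 119 bp for ARID1A peaks. For ARID2 neighbours the member was farther in 213 of 362 pairs (58.8%), with medians of 294 and 174.5 bp. In most such pairs the member thus had the larger distance, but the side of the start and the transcript start used were not compared.

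SNF5 and CpG shares were higher in members near another ARID. Members with a gap of 0 to 100 bp overlapped SNF5 in 72.0% of 225 cases and had a CpG-rich window in 58.7%. For gaps above 100 and up to 500 bp the shares were 65.5% and 46.4% of 330. Above 500 and up to 1000 bp they were 53.8% and 27.4% of 106, and up to 10000 bp 46.0% and 23.4% of 137. Beyond 10000 bp, 34.3% of 344 members overlapped SNF5 and 30.2% were CpG-rich. The SNF5 share thus fell from class to class, while the CpG share was lowest between 1000 and 10000 bp. These shares are a description, since the gap is what the rule used.

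**Figure D3:**
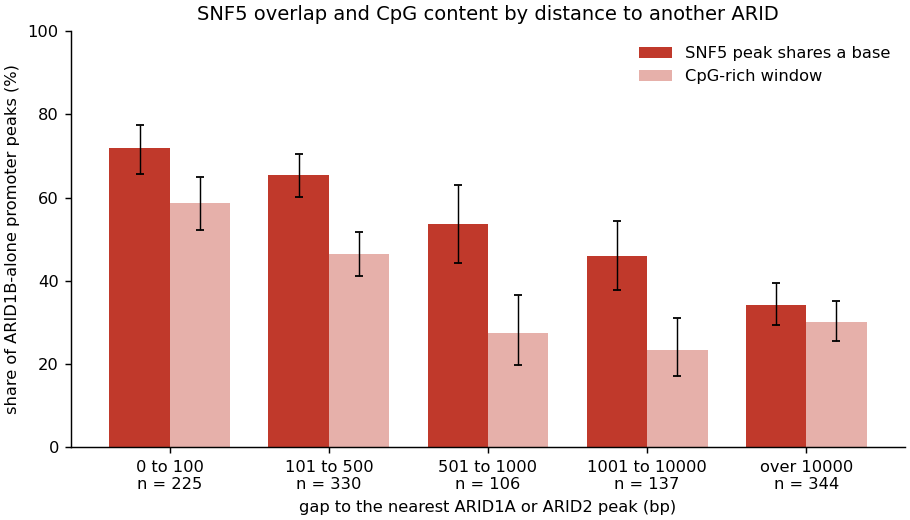
Share of ARID1B-alone promoter peaks (%) overlapping an SNF5 peak and with a CpG-rich window, by the gap in bp to the nearest ARID1A or ARID2 peak, with 95% Wilson intervals. The SNF5 share went from 72.0% at gaps of 0 to 100 bp to 34.3% beyond 10000 bp.

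At the edge of the rule, members differed from shared peaks by single bases. A gap of 0 bp, with peaks that touch but share nothing, was found at 5 members, and the authors' own label called all 5 of them multiple. Examples were MST1L, which touched ARID2, and AC025442.3 and NMRK1, which touched ARID1A. On the other side of the rule, the peaks at MIR4505, SLIT1 and HDHD2 were left out for an overlap of 1 bp. The members farthest from a start were those at POLR2J2 (998 bp), COBLL1 (995 bp) and LHPP (992 bp). The nearest ARID1B-alone peaks outside the promoter class lay at 1000 bp from a Y_RNA gene and at 1001 bp from IFI35 and DDIT4.

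CpG content set the members apart from both shared ARID1B and ARID1A-alone promoter peaks. A window of 150 bp on either side of each midpoint was called CpG-rich at a GC content of at least 50% and an observed-to-expected CpG ratio of at least 0.6. This held for 450 of 1142 members (39.4%, 36.6 to 42.3), against 62.4% of all ARID1B promoter peaks. Shared ARID1B promoter peaks reached 74.5% (odds ratio 0.222, Fisher's exact test, adjusted p = 4.35e-86) and ARID1A-alone promoter peaks 71.9% (odds ratio 0.254, Fisher's exact test, adjusted p = 5.50e-90). ARID2-alone promoter peaks were closer at 44.04%, a difference of -4.64 points (-7.82 to -1.39, odds ratio 0.826, Fisher's exact test, adjusted p = 0.00754). That odds ratio was 0.892 with stricter CpG limits, which no longer passed, and 1.09 with reciprocal overlap, in the other direction. The median GC content was 56.5% in members, 64.8% in shared peaks, 66.4% in ARID1A-alone and 55.5% in ARID2-alone peaks. Medians of the CpG ratio were 0.516, 0.798, 0.775 and 0.618 in the same order. ARID1B-alone peaks outside promoters, 3951 in number, were CpG-rich in 2.94% of cases, so the members lay between these and the shared promoter peaks.

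Members also lay farther from gene starts. A midpoint within 200 bp of a TSS was found for 455 members (39.8%), against 54.2% of all ARID1B promoter peaks. The share was 61.8% in shared peaks (odds ratio 0.409, Fisher's exact test, adjusted p = 6.03e-33) and 58.1% in ARID1A-alone peaks (odds ratio 0.478, Fisher's exact test, adjusted p = 5.58e-28). In ARID2-alone peaks it was 40.0%, a difference of -0.163 points with an interval of -3.35 to 3.07 (Fisher's exact test, adjusted p = 0.945). The odds ratio against them did pass with the 1000-bp rule (0.738) and with a limit of 100 bp from a TSS (0.818). Median distances were 279.5 bp for members, 127 bp for shared, 146 bp for ARID1A-alone and 288 bp for ARID2-alone peaks. The side of the start could be read for 728 members whose deposited distance was met within 10 bp by a transcript start of that gene. Of these, 49.2% lay upstream (45.6 to 52.8), with a median position of 5 bp and quartiles of -254 and 289 bp. ARID2-alone peaks lay upstream in 39.1% of 2887 cases, with a median of 72 bp downstream. No annotated exon was touched by 600 members (52.5%), against 32.1% of shared peaks.

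**Figure D4:**
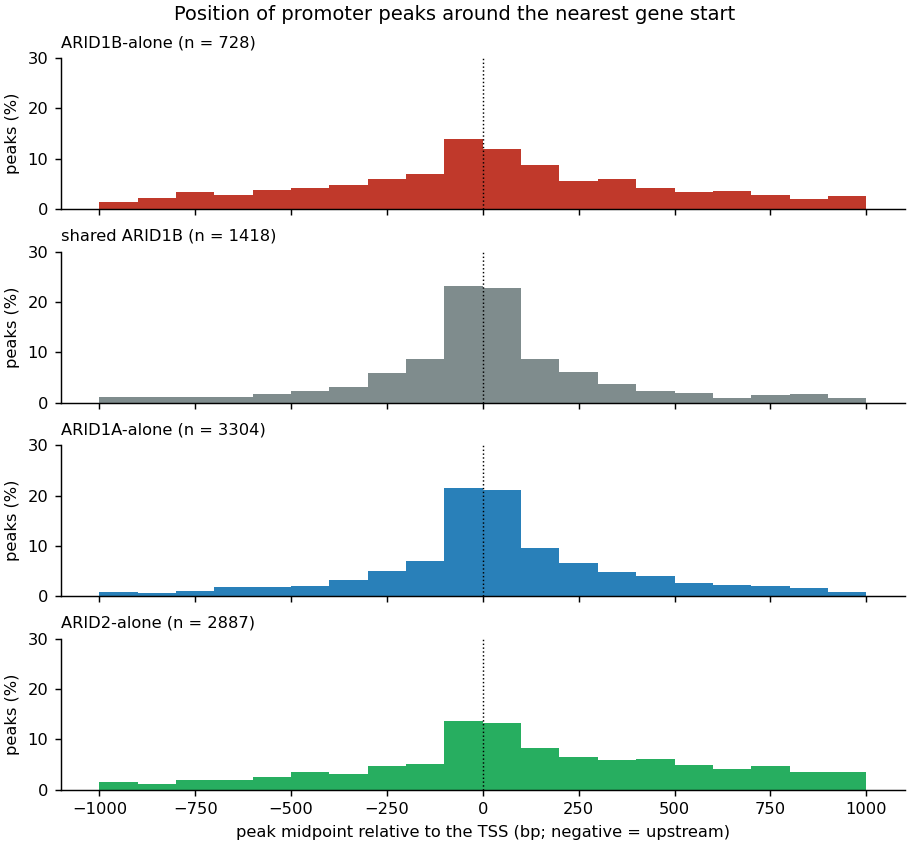
Histograms of the peak midpoint relative to the TSS (bp, negative upstream, 100-bp bins, % of peaks in the group) for the 4 groups of promoter peaks whose position could be read. ARID1B-alone peaks spread over both sides (49.2% upstream), with quartiles of -254 and 289 bp against -115 and 126 bp for shared ARID1B peaks.

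The authors' chromatin state, a deposited class for each ARID peak, was used for chromosome 1 only, because elsewhere it did not follow position. Overlapping ARID1A and ARID1B peaks carried the same state in 86.2% of 218 pairs on chromosome 1 and in 39.3% of 2662 pairs on the other chromosomes. On chromosome 1 the active promoter state was given to 64 of 106 members (60.4%), against 68.7% of all ARID1B promoter peaks there. It was given to 74.0% of 169 shared peaks (odds ratio 0.536, Fisher's exact test, adjusted p = 0.0265). For ARID1A-alone peaks the share was 77.3% (odds ratio 0.446, Fisher's exact test, adjusted p = 0.000794), and for ARID2-alone peaks 77.6% (odds ratio 0.440, Fisher's exact test, adjusted p = 0.000794). Strong or weak enhancer states covered 20 of the 106 members (18.9%), 15.4% of shared, 7.41% of ARID1A-alone and 8.57% of ARID2-alone peaks. The difference from shared peaks did not pass the test within strata of GC content (odds ratio 0.652), among peaks within 500 bp of a start (0.723), at a width of at least 100 bp (0.594) or with reciprocal overlap (0.971). Within 500 bp of a start the differences from ARID1A-alone (0.654) and ARID2-alone peaks (0.585) did not pass either.

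The nearest genes of members were less often protein-coding. Gene types were found for 944 members, of which 830 (87.9%) had a protein-coding nearest gene, against 91.0% of all ARID1B promoter peaks. The shares were 92.4% for shared (odds ratio 0.597, Fisher's exact test, adjusted p = 0.000250), 95.5% for ARID1A-alone (odds ratio 0.347, Fisher's exact test, adjusted p = 9.76e-16) and 94.3% for ARID2-alone peaks (odds ratio 0.441, Fisher's exact test, adjusted p = 3.78e-10). With reciprocal overlap the odds ratio against shared peaks was 0.946 and did not pass. Of all members, 51 (4.47%) lay at pseudogenes, 26 at long noncoding RNA genes and 34 at small RNA genes. Pseudogenes accounted for 1.29% of shared, 1.09% of ARID1A-alone and 1.28% of ARID2-alone peaks. The small RNA genes comprised 14 microRNA, 8 miscellaneous RNA, 5 rRNA, 5 snoRNA and 2 snRNA genes. An SNF5 peak was overlapped by all 5 rRNA members, 4 of the 14 microRNA and 2 of the 8 miscellaneous RNA members. It was overlapped by 0 of the 5 snoRNA and 0 of the 2 snRNA members, beside 53.9% of all members. The remaining 198 members (17.3%) had names not found in the annotation, 175 of which were clone-based names.

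A total of 14 short sequence motifs were searched on both strands of the same windows, and matches are given as a description. None of them contains another, although NFI letters can overlap those of a reversed CCAAT box. The SP/KLF letters GGGCGG were present in 36.1% of members, 61.0% of shared peaks and 54.1% of 20176 protein-coding gene starts. The ETS letters CCGGAAG were present in 4.64%, 13.0% and 12.1%, respectively. NRF1 (GCATGCGC) was matched in 1.31% of members and 5.45% of shared peaks, with 3.64% at gene starts. The cAMP response element (CRE, TGACGTCA) was found in 4 members (0.350%), 2.17% of shared peaks and 2.17% of gene starts. The E-box CACGTG was found in 5.17%, 9.29% and 7.79%, and YY1 (AAGATGGCG) in 1.14%, 2.08% and 2.34%. Members thus held each of these 6 CpG-containing motifs at a lower share than shared peaks and gene starts.

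Shares of the 8 motifs without CpG went both ways. AP-1 (TGANTCA) was matched in 7.71% of members, 4.81% of shared peaks and 5.89% of gene starts. The TEAD letters GGAATG, bound by the factors at the end of the Hippo pathway, were matched in 14.9%, 12.2% and 11.7%. The TATA-box letters TATAAA were found in 8.58%, 4.76% and 9.24%. NFI (TTGGCA) gave 12.2%, 9.33% and 10.3%, and CCAAT (NFY) 24.4%, 27.1% and 33.7%. Liver factors gave low shares, with FOXA (TGTTTAC) in 3.77% of members, 3.19% of shared peaks and 2.16% of gene starts, and HNF4 (CAAAGTCCA) in 1.58%, 1.16% and 0.292%. The CTCF letters AGGTGGCAG were found in 0.438%, 0.739% and 0.788%. ARID1B-alone peaks outside promoters held AP-1 in 12.1% and TEAD in 18.2% of windows, above the members. ARID2-alone promoter peaks were near the members for TEAD (15.4%), NFI (12.1%), TATA (8.27%) and SP/KLF (38.4%), with overlapping 95% intervals. For AP-1 they were at 5.61% (4.95 to 6.36), closer to shared peaks (4.81%). That interval only just met the interval of members (6.30 to 9.40). Only the intervals for ETS (7.11%), CCAAT (29.8%) and HNF4 (0.689%) did not overlap those of members. These motif shares were not compared with a test.

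The motif shares were also read within CpG classes. Among windows that were not CpG-rich, AP-1 was present in 11.3% of 692 members and 10.0% of 551 shared peaks, and TEAD in 18.9% and 18.0%. Their 95% intervals overlapped. ETS stayed lower in members within both classes, at 8.89% against 15.6% in CpG-rich and 1.88% against 5.63% in other windows, and so did SP/KLF, at 64.9% against 72.9% and 17.3% against 26.1%.

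**Figure D5:**
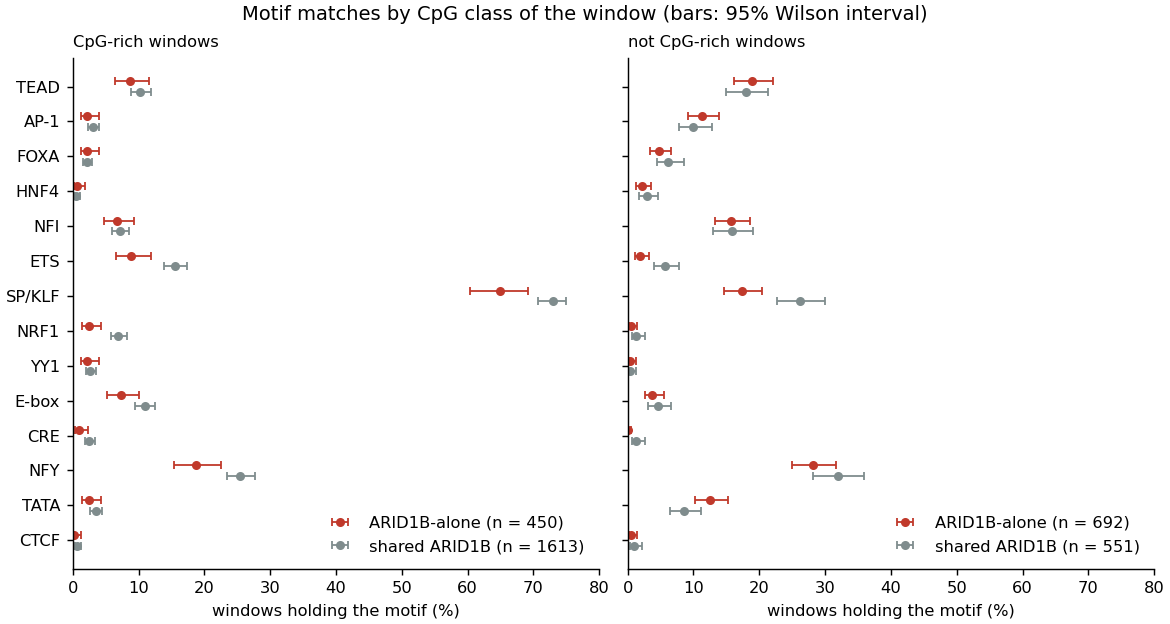
Share of windows of 150 bp on either side of the midpoint (%) holding each of 14 motifs, in CpG-rich (left) and other (right) windows of ARID1B-alone and shared ARID1B promoter peaks, with 95% Wilson intervals. ETS and SP/KLF were lower in ARID1B-alone peaks in both panels, whereas AP-1 and TEAD intervals overlapped.

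The members lay at 1044 gene names, which are 11.0% of the 9526 names with a promoter peak of any ARID. Any ARID1B promoter peak was present at 28.5% of those names. A name held 1 member in 963 cases, 2 in 69, 3 in 9 and more than 3 in 3 cases. An ARID1A or ARID2 promoter peak was also assigned to 640 of the 1044 names (61.3%), and a shared ARID1B promoter peak to 192 (18.4%). The other 404 names (38.7%) had neither ARID1A nor ARID2 by name, although a peak assigned to another name can lie close by, as at PPP1R10.

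Liver genes were among the nearest genes of members. Of 28 secreted liver protein genes with an ARID promoter peak, 8 held a member (28.6%), beside the 11.0% over all names. An ARID1B promoter peak of any kind was present at 16 of the 28, beside 28.5% of all names. Among names with an ARID1B promoter peak, a member was held by 8 of these 16 genes and by 1044 of 2712 names over all. FGA was the clearest case in distance, with its 235-bp member on an SNF5 peak of score 25 and the nearest ARID1A and ARID2 peaks 1026198 and 1124376 bp away. APOE held a 226-bp member 131 bp from a start, with an SNF5 score of 25, an ARID1A gap of 1368 bp and an ARID2 gap of 1475 bp. APOA5, an apolipoprotein that regulates plasma triglycerides, held a 163-bp member at chr11:116663079-116663241, 21 bp from its start with a score of 14, and no ARID1A or ARID2 promoter peak. At C5, a complement component, the intronic 231-bp member (chr9:123812656-123812886) had an SNF5 score of 28 and an ARID1A peak 150 bp away. The other 4 were APOC1, F2 (prothrombin), APOH and RBP4 (retinol-binding protein), each with an ARID1A peak within 300 bp. F2 and RBP4 had no overlapping SNF5 peak.

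Of 15 hepatocyte transcription factor genes with an ARID promoter peak, 4 held a member (26.7%), beside the 11.0% over all names. An ARID1B promoter peak of any kind was held by 8 of the 15, beside 28.5% of all names. All 4 genes with a member also held ARID1A and ARID2 promoter peaks. NR0B2 (SHP), a repressor of bile acid synthesis, had the widest of them, 415 bp at chr1:27240754-27241168, upstream of the gene, with an SNF5 score of 33 and an ARID2 gap of 127 bp. The members at the pioneer factors FOXA3, FOXA2 and FOXA1 were 231, 52 and 52 bp wide. Those at FOXA3 and FOXA2 lay 37 and 27 bp from an ARID1A peak and overlapped SNF5, while the FOXA1 member lay 2821 bp from SNF5.

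Among 20 Hippo pathway and TEAD target genes with an ARID promoter peak, 4 held a member. YAP1, the coactivator of TEAD factors, held 2 members, of 445 bp at chr11:101982858-101983302 and of 186 bp at chr11:101981451-101981636, both on an SNF5 peak of score 28. AMOTL2, an angiomotin-like inhibitor of YAP, held 1 of 249 bp at 2 bp from its start. AXL, a receptor tyrosine kinase, held 1 of 159 bp without SNF5 and 35460 bp from the nearest ARID1A peak. CRIM1 held 1 of 52 bp at 983 bp from its start. In the TGF-beta list the pathway inhibitors SKIL and SMAD7 held members of 228 and 207 bp, both on SNF5 peaks and both with ARID1A and ARID2 promoter peaks by name.

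The remaining lists are given beside the 11.0% of all names that held a member. Of 19 SWI/SNF subunit genes with an ARID promoter peak only ACTL6B, a neuronal subunit, held a member (5.26%; chr7:100254021-100254283), which lay 14329 bp from SNF5 and 16660 bp from ARID1A. FOSL2 was the single AP-1 gene of 11 (9.09%), and GSTA4, a glutathione transferase, the single drug metabolism gene of 13 (7.69%). Of the 6 genes listed as cofactors of ARID1B sites, 4 had an ARID promoter peak, and of these FOXA1 held a member. Cholesterol and lipid synthesis genes had 0 members of 24, and of 46 histone genes only HIST2H3A had 1. Ribosomal protein genes had members at 4 of 72 (5.56%), of which RPL4 and RPS23 lay 117456 and 305995 bp from ARID1A and had SNF5 scores of 27 and 23. The others lay close to another ARID. RPL28 was 274 bp from an ARID1A peak and had no SNF5 overlap. RPS26 was 77 bp from an ARID2 peak and had an SNF5 score of 31. Zinc finger (ZNF) genes had members at 15 of 225 (6.67%), the widest at ZNF821 with 256 bp. Extracellular matrix and adhesion genes had 2 of 20 (10.0%), the integrin beta chains ITGB2 and ITGB1. Olfactory receptor genes had no promoter peak of any ARID.

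Solute carriers and microRNA genes were counted in the same way. Members were found at 22 of 134 solute carrier names (16.4%), beside the 11.0% over all names. An ARID1B promoter peak of any kind was present at 48 of the 134, beside 28.5% of all names. Of the 22, 9 had neither an ARID1A nor an ARID2 promoter peak, beside 404 of 1044 (38.7%) over all member names. The widest lay at SLCO2B1, an organic anion transporter, in an intron at chr11:74866857-74867479, with 623 bp, an SNF5 score of 19 and an ARID1A gap of 6437 bp. SLC6A12 and SLC17A7 followed with 534 and 483 bp, the first with an SNF5 score of 24 and the second without SNF5. MicroRNA names held members in 10 of 70 cases (14.3%), beside the 11.0% over all names, 7 of them with neither by name. By distance 3 of the 7 had one close by, MIR760 with ARID1A at 310 bp and ARID2 at 451 bp, MIR4651 at 331 and 367 bp, and MIR3675 with ARID2 at 576 bp. MIR3127, with 222 bp, was the widest, and its nearest SNF5 peak was 4699 bp away. The member at MIR760, 154 bp wide and 65 bp from the start, overlapped SNF5 with a score of 22.

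Of the 10 widest members, 8 lay over 10000 bp from any ARID1A or ARID2 peak, beside 344 of all 1142 members (30.1%). This is a description, since the rule used the gap and a wide peak has more bases to share. GRK1, the rhodopsin kinase of retina, held the widest at chr13:114427952-114429787, 1836 bp, without SNF5 and 281428 bp from ARID1A. GRTP1 followed with 1020 bp and an SNF5 score of 18, and KIFC3, a kinesin, with 971 bp and a score of 17. RP11-300J18.3 and TMEM160 had 916 bp each, the first with an SNF5 score of 28 and the second 46895 bp from SNF5. IL1RN, the interleukin-1 receptor antagonist, held 1 of 856 bp that lay 4 bp from an ARID2 peak. The members at FCGBP (696 bp), AC005237.4 (691 bp) and LCP1 (688 bp), an actin-bundling protein, had no ARID1A or ARID2 peak within 10000 bp. NPIPL3, with 765 bp, belongs to a gene family of near-identical copies, for which the position of aligned reads is uncertain.

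Names with several members often belonged to repeated genes. Y_RNA held 6 members on 4 chromosomes, 2 of them on SNF5, and U6 held 4 on 4 chromosomes. NPIPL3 held 4 on chromosome 16. In all, 9 names held 3 members, among them ALDH3A2, a fatty aldehyde dehydrogenase, whose 3 members of 177, 446 and 129 bp all overlapped SNF5. TMEM127 likewise held 3 on SNF5 peaks of score 25, of 82, 152 and 67 bp. MSI2, an RNA-binding protein, held 2 of 3 on SNF5, and CCDC58 2 of 3. GARNL3 held 1 of 3, and its widest, of 428 bp, lay 162637 bp from SNF5. RASA4B, SRGAP2B and PI4KAP1 are members of duplicated families and carry the same uncertainty as NPIPL3.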

How the data were processed

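Chromatin of HepG2 cells was profiled by ChIP-seq in 9 libraries, with 2 replicates for each of 4 antibodies and 1 input, which was not used here. Per the study's methods, the authors aligned reads to hg19 with bowtie2, removed duplicate reads, merged both replicates, called broad peaks with MACS2 at a q of 0.01, joined peaks within 100 bp and dropped blacklisted regions. The sources used here do not say if peaks were called against the input. The deposited columns are peak boundaries and distances in bp and text classes (feature, nearest Gencode 16 gene, single or multiple label, chromatin state), for which there is no other unit. The deposited SNF5 score is a whole number from the peak caller whose scale is not stated. No read counts are held in these lists, so depth is unknown.

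The members and gene lists were chosen with earlier results of these data known. Overlap meant at least 1 shared bp, computed from the boundaries. The other groups were the ARID1B promoter peaks that overlapped ARID1A or ARID2, and the promoter peaks of ARID1A or of ARID2 that overlapped no other ARID. Sequence windows of 150 bp on either side of a midpoint, exons and gene types came from GRCh37 with Gencode 44 lifted to it, and older gene names were looked up in RefSeq. Gene types were found for 82.7% of members. Groups were compared with two-sided Fisher's exact tests (scipy 1.17.1) adjusted over 15 comparisons by the Benjamini-Hochberg method at 0.05. For 1 member and 1 ARID1A-alone peak the window held no known bases and was counted as not CpG-rich. Intervals are 95% Wilson intervals and cover counting error over peaks only. The scripts were tested on simulated data. The chromatin state was to be compared over all chromosomes and was restricted to chromosome 1 after the data were seen.

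Genes were named as the 10 members with the highest SNF5 scores, the 10 widest, the members of 16 gene lists (widest first), the names with the most members and the peaks at the edges of the rule. Printed sequences came from ranked peaks off chromosome 8, and the limit to peaks off exons was added after the data were seen. Some results are not reported here. Alternatives changed the overlap rule, minimum width, promoter distance, chromosomes, SNF5 rule, CpG limits and strata of width or GC content.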

Additional observations from a re-analysis of the deposited data

How the results depend on the processing

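Of 144 alternatives for 16 results, 138 planned and 6 chosen after seeing the data, 115 kept direction and side of the threshold. The limit to autosomes was not counted for the chromosome 1 state, which it leaves as it is. The number of members was 481 when an ARID1A or ARID2 peak within 1000 bp counted as shared, 2672 when sharing needed a reciprocal overlap of 50%, and 738 for peaks of at least 100 bp. The values that follow are odds ratios of members against the group named, and the cause of each change was not tested. For SNF5 against ARID1A-alone peaks the odds ratio was 1.24 with reciprocal overlap, 0.856 within 500 bp of a start, 0.992 within strata of width, 0.911 within strata of GC content and 0.998 with SNF5 peaks at or above the median score. For SNF5 against ARID2-alone peaks it was 0.803 with the 1000-bp rule, 0.643 with SNF5 within 1000 bp, 1.48 with reciprocal overlap, 1.21 within strata of width and 1.17 with the score limit. For CpG-rich windows against ARID2-alone peaks it was 1.09 with reciprocal overlap and 0.892 with the stricter CpG limits. For the active promoter state against shared peaks it was 0.971 with reciprocal overlap, 0.594 at 100 bp or wider, 0.723 within 500 bp of a start and 0.652 within strata of GC content. Within 500 bp of a start it was 0.654 against ARID1A-alone and 0.585 against ARID2-alone peaks. For a midpoint near a start against ARID2-alone peaks it was 0.738 with the 1000-bp rule, 1.04 with reciprocal overlap, 1.00062 on autosomes, 1.05 at 100 bp or wider, 1.00021 within strata of width, 0.818 for a limit of 100 bp and 1.07 for 500 bp. For protein-coding genes against shared peaks it was 0.946 with reciprocal overlap. No paired analysis was possible because both replicates of each antibody were merged before peak calling, and for the same reason no replicate could be left out. Depth limits are unknown, since the lists carry no read counts.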

Other observations

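The share of ARID1B promoter peaks that were ARID1B-alone varied between chromosomes. It was 53.0% of 83 on chromosome 9 (Wilson 95% interval 42.4 to 63.4), 45.8% of 120 on chromosome 3 and 42.9% of 156 on chromosome 7. On chromosomes 6, 20 and 14 it was 25% of 316, 24.5% of 151 and 23.1% of 117. Chromosome 2 held the most members, 132 of 461 (28.6%). All 4 ARID1B promoter peaks on chromosome X were ARID1B-alone. These shares were not compared with a test.

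The deposited chromatin states can be checked against position, because overlapping peaks of different lists lie in the same place. Over all chromosomes, overlapping ARID1A and ARID1B peaks carried the same state in 42.9% of 2880 pairs, where the product of the state shares of both lists is 30.9%. The same pairs carried the same feature class in 97.4% and the same nearest gene in 93.3% of cases. For ARID1B and ARID2 the state was the same in 82.0% of 172 pairs on chromosome 1 and in 35.0% of 2286 pairs elsewhere. With all chromosomes as deposited, the odds ratio of the active promoter state was 0.772 against shared peaks, 0.290 against ARID1A-alone and 0.319 against ARID2-alone peaks.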
